A study of Mus musculus with 16 samples.

Results

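Genes of the response to low oxygen and of glycolysis were examined in primary mammary tumors of *Resf1* wildtype x PyMT and *Resf1* gene trap x PyMT mice. The 36 genes were listed by symbol, for their known roles, and 35 of them had a row among the 23609 genes of the table. *Mxd1os*, a long noncoding RNA, was the 1 listed gene without a matched row. The wildtype group carried the MMTV-PyMT transgene and unaltered *Resf1*, and the gene trap group carried the same transgene and was heterozygous at *Resf1* (+/-). The oncogene PyMT, polyoma middle T antigen, was driven in both groups by the MMTV promoter and induces tumors of the mammary epithelium. The trap is a lentiviral construct in the first exon of *Resf1* that expresses an EGFP-Cre fusion, it came from a C57BL/6 line, and the animals were littermates of a cross with FVB/MMTV-PyMT mice, so that host cells as well as tumor cells carried it. The ages of the animals are not given in the labels. The values came from 5 wildtype and 5 gene trap tumors of 16 labelled tumors, and all are normalized values, that is, estimated counts that the authors had already scaled between tumors. RNA was taken from tumor tissue and not from sorted cells, so that fewer cells of a type and less RNA per cell cannot be told apart in any value below.

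Cells sense oxygen through the prolyl hydroxylases encoded by *Egln1* and *Egln3*, which mark the hypoxia-inducible factor (HIF) alpha subunits for destruction as long as oxygen is present. When oxygen falls, HIF1A protein accumulates and pairs with ARNT. The pair raises the transcription of genes for blood vessel growth, glucose uptake, glycolysis, lactate export and the diversion of pyruvate away from mitochondrial oxidation. HIF1A is controlled mainly as a protein, and *Hif1a* mRNA is therefore not a measure of its activity. Many tumors also run glycolysis at a high rate in the presence of oxygen, and solid tumors commonly hold poorly perfused regions.

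HIF dimers recognize the core letters ACGTG or GCGTG on either DNA strand. RefSeq promoters (build GRCm38.p6) were found for 33 of the 35 genes, at 47 transcription starts, and *Slc2a3* and *Ndrg1* had no entry. At least 1 of the core letters lay in the 250 bases before 38 of these 47 starts (80.9%), against 38.6% of the 32851 starts in the whole set. ACGTG alone was found before 23 of the 47 starts (48.9%), against 16.6% of all starts. Part of these matches overlap the palindrome CACGTG, which reads the same on both strands, counts on both, and was present before 10.6% of the members' starts and 6.02% of all starts. The members' windows were also richer in G and C, with a median of 61.6% against 52.4%, and held a median of 14 CG steps against 6.0, and the part of base composition in the matches was not tested. A match is a description of the letters and not evidence of binding. For the 8 genes of the 4 pairs that followed each other most closely across tumors, 1 match is shown, taken from those with 10 bases on either side in the window, ACGTG where there was one and otherwise GCGTG, nearest to the start. *Ankrd37* also held ACGTG at 241 and 6 bases before its start, too near the ends of the window to be printed with these flanks. *Ldha* had a further start whose only match was GCGTG, 59 bases before it. Each match is printed on the gene's strand, 5′ to 3′, with the core in capitals (CACGT and CACGC are the core letters on the opposite strand).
*Vegfa*, chr17:46025360-46025384, minus strand, 211 bases before the start: agtgcgtgccCACGTcagagagcaa
*Adm*, chr7:110627593-110627617, plus strand, 54 bases before the start: caaatctgacCACGCccaccgtccg
*Ankrd37*, chr8:45999988-46000012, minus strand, 152 bases before the start: cactgcgcacGCGTGctgcggccgc
*Egln3*, chr12:54204089-54204113, minus strand, 229 bases before the start: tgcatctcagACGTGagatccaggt
*Bnip3*, chr7:138909599-138909623, minus strand, 107 bases before the start: cacgcgccgcACGTGccacacgctc
*Pdk1*, chr2:71873136-71873160, plus strand, 78 bases before the start: gcctacatggGCGTGtctttaacca
*Slc2a1*, chr4:119108699-119108723, plus strand, 36 bases before the start: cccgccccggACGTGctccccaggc
*Ldha*, chr7:46845760-46845784, plus strand, 34 bases before the start: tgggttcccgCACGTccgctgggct
No core letters were found in the windows of *Gpi1*, *Tpi1* and *Eno2*. *Vegfa*, *Pdk1*, *Hk1*, *Pfkm*, *Aldoa* and *Pkm* each had a start without the core letters beside at least 1 start with them.

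Some facts of all libraries touch the values below. *Resf1*, the trapped gene, was 4215, 4397, 3881, 4487 and 3517 in wildtype replicates 1 to 5 and 4029, 3066, 3686, 3392 and 3409 in gene trap replicates 1 to 5. It had a log2 fold change of -0.22 (gene trap over wildtype, standard error 0.09) and overlapping groups. The unadjusted limma p was 0.0313 and the limma p adjusted over all tested genes 0.99972. An exact two-sided permutation test over 252 arrangements of the tumors gave p = 0.0635 for *Resf1*. With each tumor left out in turn, its unadjusted limma p ran from 0.0100 to 0.0781. By qRT-PCR, the paper reported less *Resf1* mRNA in gene trap than in wildtype tumors. Gene trap replicate 2 stood apart, since it held the highest value of 22.4% and the lowest value of 21.8% of the 21034 tested genes, against 6.51% to 11.7% for the other tumors. The luminal epithelial genes, which mark the cells the tumors arise from, were present in every tumor. Their summed value (8 of 8 genes with a row) ranged from 87309 to 114398 in wildtype and from 90458 to 119117 in gene trap tumors. The depth of each tumor is unknown, because the deposited values are scaled and not whole.

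Whether hypoxia and glycolysis genes differed between the genotypes was asked first. No member passed the test of a difference. All 35 genes had a mean of at least 10 and were tested. Of them, 0 had a limma p under 0.05 after adjustment over all tested genes, where the share was 0% (0 of 21034), and 0 had an unadjusted p under 0.05, where the share was 2.28% (479 of 21034). The members were higher in gene trap tumors for 13 genes and lower for 22, whereas 51.4% of all tested genes were higher. Their median log2 fold change was -0.041, with quartiles of -0.085 and 0.047, and that of all tested genes was 0.0047, with quartiles of -0.093 and 0.10. A difference of at least 1.2 fold was seen for 4 of 35 members and for 18.1% of tested genes, and one of at least 1.5 fold for 0 members and 3.2% of tested genes. No member had groups that failed to overlap, which 0.528% of tested genes had. The intervals show what these tumors could resolve. The 95% confidence interval of 11 members included a difference of 1.5 fold, and that of the other 24 did not. On the log2 scale it was narrowest for *Ldhb*, at -0.26 to 0.040, and widest for *Adm*, at -1.16 to 0.63, followed by *Slc16a3*, at -0.74 to 0.96.

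**Figure D1:**
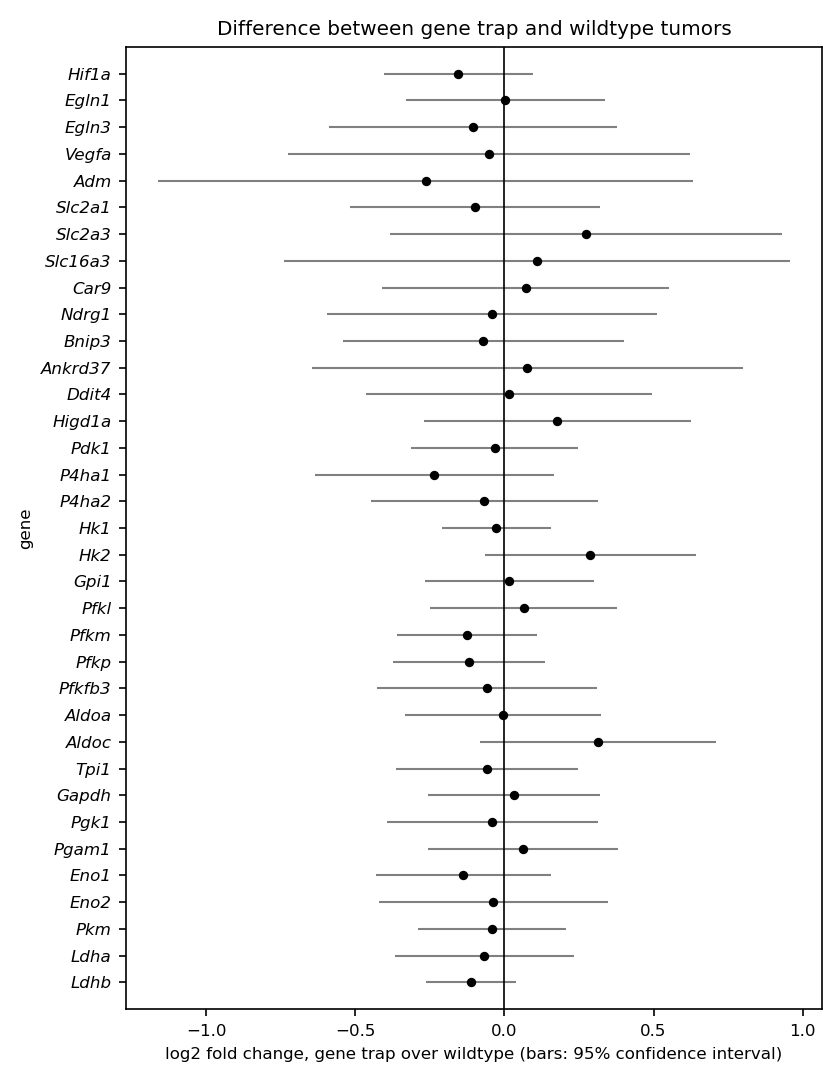
Log2 fold change of each member, gene trap over wildtype (x axis), from limma on log2(value + 1) with 5 tumors per group; points are estimates, bars are 95% confidence intervals and the line marks no difference. Every interval crosses 0, with estimates between -0.26 for *Adm* and 0.31 for *Aldoc*.

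*Hif1a* (ENSMUSG00000021109), which encodes the oxygen-regulated subunit of HIF, had normalized values of 4092, 3897, 3877, 4464 and 4234 in wildtype replicates 1 to 5 and 3759, 2709, 3755, 4051 and 4419 in gene trap replicates 1 to 5. All tumors but gene trap replicate 2, the lowest, lay close together, and the log2 fold change was -0.15 (standard error 0.11). *Egln1*, the main oxygen sensor of most cells, was 729, 1183, 913, 1183 and 871 in the wildtype and 838, 909, 893, 1291 and 932 in the gene trap tumors. Its groups had nearly equal means, at 976 ± 201 and 973 ± 181 (SD, n = 5 each). *Egln3*, the hydroxylase that is itself induced by HIF, was 3246, 2811, 1887, 3882 and 2030.3 in wildtype and 1713, 2822, 2512, 3547 and 2190.1 in gene trap tumors. The highest value of *Egln3* was in wildtype replicate 4 and the lowest in gene trap replicate 1, a 2.27-fold range, and the log2 fold change was -0.10 (standard error 0.22).

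The secreted factors varied most between tumors. *Vegfa* (ENSMUSG00000023951), the principal growth factor of blood vessels, was 1571, 2556, 1208, 3499 and 1665 in wildtype replicates 1 to 5 and 1227, 1340.3, 1969, 3238 and 2253 in gene trap replicates 1 to 5. Replicate 4 was the highest of each genotype, the groups covered almost the same range, and the difference was -3.52% (interval -39.5% to 53.8%). *Adm* (ENSMUSG00000030790), which encodes the vessel-dilating peptide adrenomedullin, was 171, 273, 168, 405 and 208 in wildtype and 85.8, 119, 196, 467 and 282 in gene trap tumors. It had the widest range of all members, 5.45-fold from gene trap replicate 1 to gene trap replicate 4, and both ends of that range lay within 1 genotype. The within-genotype SD of *Adm* was 0.78 on the log2 scale and that of *Vegfa* 0.59, against a median of 0.25 over all tested genes. The log2 fold change of *Adm*, -0.26 (standard error 0.41), was smaller than that spread. Endothelial markers (8 of 8 with a row, none listed at 0) summed to between 2813 and 5238 in wildtype and between 2656 and 4695 in gene trap tumors. Among wildtype tumors their sum was lowest in replicate 4, where *Vegfa* and *Adm* were highest. Among gene trap tumors it was lowest in replicate 2, where *Vegfa* and *Adm* were second lowest, and in replicate 4, where they were highest, it was the median of the group at 3379. The part of vessel content in these values was not tested.

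Of the transporters, *Slc2a1* (ENSMUSG00000028645), the glucose transporter GLUT1, was 922, 1385, 930.5, 1727 and 1065 in wildtype and 823, 1076, 1024, 1515 and 1126 in gene trap tumors. Replicate 4 was again the highest of both groups, and the log2 fold change was -0.10 (standard error 0.19). *Slc16a3*, the lactate exporter MCT4, was 156, 591, 141, 365 and 197 in wildtype and 167, 249.7, 381, 417 and 207 in gene trap tumors. Wildtype replicate 2 exceeded all others, and the SD within genotype, 0.74 on the log2 scale, was the largest after that of *Adm*. *Slc2a3*, the glucose transporter GLUT3 of neurons and white blood cells, was low throughout, at 52.1, 50.3, 29.3, 33.7 and 51.8 in wildtype and 32.01, 53.1, 94.5, 35.2 and 62.2 in gene trap tumors. Gene trap replicate 3 held its highest value, above every wildtype tumor. In the same tumor *S100a9*, a single gene of the neutrophil list, was 565 against at most 231 in the others. *Cd3e*, a single gene of the T and NK cell list, was 32.5 there against at most 21.8. A single gene need not follow its list. Of the tested neutrophil genes, *S100a8* had the highest means, 356 in wildtype and 690 in gene trap tumors. The means of *S100a9* were 93.8 and 143, so the sum of the list rests mainly on *S100a8*. In gene trap replicate 2, where that sum was highest, *S100a9* was at most 231. The neutrophil list (7 of 8 with a row, none listed at 0, *Ly6g* without a row) summed to 352 to 1086 in wildtype and 383 to 2161 in gene trap tumors, with 2161 in replicate 2 and 1634 in replicate 3. The T and NK cell list (8 of 8, none listed at 0) summed to 99.6 to 308 in wildtype and 97.6 to 470.2 in gene trap tumors, highest in replicate 3. Both lists were thus high in the tumor with the most *Slc2a3*. The neutrophil list was higher still in gene trap replicate 2, where *Slc2a3* was 53.1, so their order differed. The part of these cells in the log2 fold change of *Slc2a3*, 0.27 (standard error 0.30), was not tested, and without gene trap replicate 3 that fold change was 0.056.

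**Figure D2:**
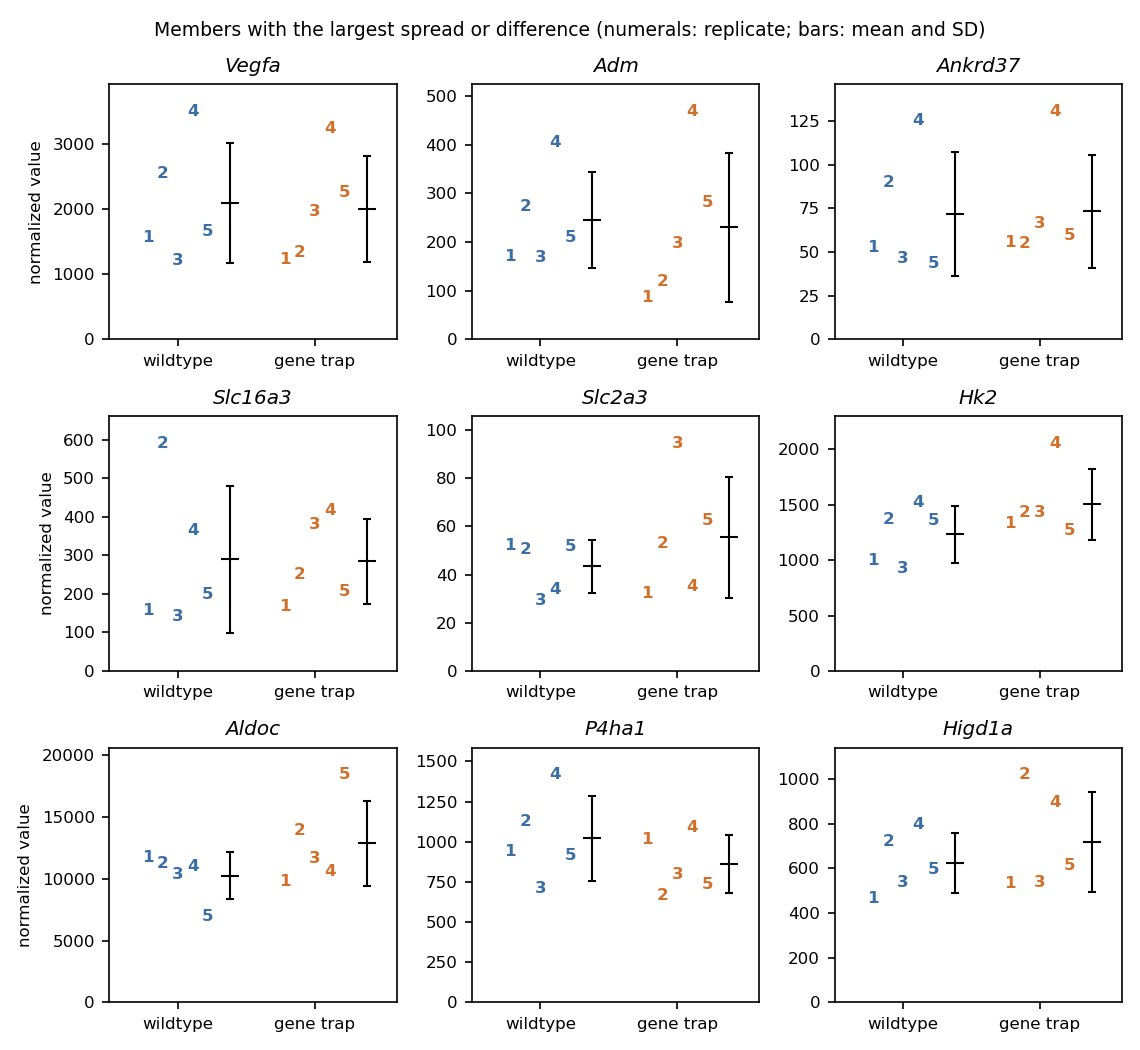
Normalized values (y axis, linear, from 0) of the 9 members with the largest difference between groups or the largest spread; numerals are replicates, blue is wildtype and orange gene trap, and bars are the mean and SD of 5 tumors. The groups overlap in every panel, and replicate 4 of both genotypes is at or near the top for *Vegfa*, *Adm* and *Ankrd37*.

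The other HIF targets are genes for acid balance, mitochondria, growth control and collagen maturation. *Car9* (ENSMUSG00000028463), the carbonic anhydrase of hypoxic cell surfaces, was 824, 752, 437, 738 and 361 in wildtype and 479.6, 606, 651, 681 and 717 in gene trap tumors. Its order differed from that of most members, since wildtype replicate 1 was the highest and wildtype replicate 5 the lowest. *Ndrg1*, a stress gene often used as a marker of low oxygen, was 2519.7, 5250.3, 2919.8, 5484 and 3845 in wildtype and 3378, 2569.9, 4024, 6133 and 3282 in gene trap tumors. It was lowest in the tumor in which *Car9* was highest. *Ankrd37*, a direct HIF target that encodes an ankyrin repeat protein, was 52.8, 90.03, 46.4, 126 and 43.2 in wildtype and 55.5, 54.7, 66.5, 130.3 and 59.7 in gene trap tumors. Gene trap replicate 4 and wildtype replicate 4 lay well above the rest of their groups, and the within-genotype SD was 0.59. *Bnip3*, which promotes the removal of mitochondria, was 565, 945, 742, 1118 and 719 in wildtype and 549, 629.7, 776, 1190.1 and 783 in gene trap tumors. *Pdk1*, the kinase that holds back the oxidation of pyruvate in mitochondria, was 2457, 2559.7, 2405, 2773 and 2644 in wildtype and 2014, 2275, 2616, 3553 and 2327 in gene trap tumors. The wildtype tumors were nearly alike for *Pdk1*, whereas the gene trap tumors ranged from the lowest to the highest value of all 10 tumors. *Higd1a*, a mitochondrial survival gene, was 466, 719.6, 538, 798 and 597 in wildtype and 530.2, 1019, 538, 897 and 611 in gene trap tumors. Its highest value was in gene trap replicate 2, the tumor that stood apart, and the log2 fold change was 0.18 (standard error 0.21). *Ddit4*, an inhibitor of mTOR signaling, ranged from 1887 to 4074, and its log2 fold change was 0.016 (standard error 0.22).

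*P4ha1* and *P4ha2* encode the catalytic subunits of the prolyl hydroxylases that collagen needs to fold. *P4ha1* was 939.7, 1124, 709, 1416 and 916 in wildtype and 1011, 666, 797, 1088 and 735 in gene trap tumors. It had one of the larger differences, -0.24 (standard error 0.18) on the log2 scale or -15.04% (interval -35.6% to 12.2%), with a limma p of 0.225 before adjustment. *P4ha2* was 490.1, 706, 359, 513 and 465 in wildtype and 509.7, 354, 451, 588 and 489.9 in gene trap tumors. For both genes the highest value was in a wildtype tumor and the lowest in gene trap replicate 2, and the groups overlapped.

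Most glycolytic enzymes were abundant and varied less between tumors than the other HIF targets. Per kilobase of the longest coding transcript in GENCODE M21, the mean level over the 10 tumors was 22759.8 for *Aldoa*, 15031 for *Pkm* and 14949 for *Ldha*, and the lowest levels of the pathway were 26.5 for *Eno2* and 209.7 for *Pfkfb3*. The median within-genotype SD of the 18 enzymes was 0.24 on the log2 scale, near the 0.25 of all tested genes, while that of the 9 other HIF targets was 0.40. *Ldhb*, the heart-type lactate dehydrogenase, had the smallest SD of all members, 0.09. The direction of the difference was up for 6 enzymes and down for 12, with a median log2 fold change of -0.039.

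*Hk2* (ENSMUSG00000000628), the inducible hexokinase of the first step, was 996, 1369.7, 926, 1519 and 1362 in wildtype replicates 1 to 5 and 1332, 1429, 1435, 2055 and 1264 in gene trap replicates 1 to 5. Wildtype replicates 1 and 3 were the lowest, gene trap replicate 4 was the highest, and the remaining tumors of both groups were mixed. The log2 fold change, 0.29 (standard error 0.16), had the smallest unadjusted limma p of all members, 0.101, with an adjusted p of 0.99972. *Aldoc* (ENSMUSG00000017390), the brain-type aldolase, was 11736, 11215, 10355, 10973 and 6972 in wildtype and 9809, 13909, 11605, 10622 and 18409 in gene trap tumors. Wildtype replicate 5 was far below and gene trap replicate 5 far above the others. The largest difference among the members, 0.31 (standard error 0.18) on the log2 scale, had an unadjusted limma p of 0.108, and it was 0.18 without gene trap replicate 5 and likewise without wildtype replicate 5. *Aldoa*, the main aldolase, was 30166, 36290.2, 40705, 36576 and 31557 in wildtype and 25284, 34847, 32028, 38760.3 and 46336 in gene trap tumors, and its log2 fold change was -0.0043 (standard error 0.15). A separate gene ID that carries the same symbol had values of at most 55.8 and was not used.

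*Tpi1*, which interconverts the triose phosphates, was 9412, 12717, 10123, 13038 and 10400.3 in wildtype and 8779.8, 9819.6, 9839, 14729 and 10708 in gene trap tumors. *Pgk1*, the X-linked enzyme of the first ATP-forming step, was 2344, 3368, 2224, 3304 and 2754 in wildtype and 2152, 2807, 2471, 3844 and 2415 in gene trap tumors. Gene trap replicate 4 was the highest and gene trap replicate 1 the lowest tumor for both. *Ldha*, which turns pyruvate into lactate, was 22249, 28472, 29936, 32435 and 25401 in wildtype and 21587, 23994, 23680.1, 31655 and 31909 in gene trap tumors. Its values ran from 21587 to 32435, with both genotypes in the upper and lower parts of the range. Of the remaining enzymes, *Gpi1*, the glucose phosphate isomerase, ranged from 5656 to 8599, *Pfkfb3*, which makes the activator of phosphofructokinase, from 759 to 1344, *Gapdh*, the dehydrogenase of the middle step, from 3042 to 4471, *Pgam1*, the phosphoglycerate mutase, from 3289 to 5309 and *Pkm*, the final pyruvate kinase, from 32066 to 43826. The log2 fold changes of these 5 enzymes lay between -0.059 and 0.062.

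Part of these levels may stand on the rows of near-identical copies, mostly pseudogenes, which are copies of spliced transcripts elsewhere in the genome. Transcripts at least 95% identical over at least 300 bases were found in the table for 10 members, and reads that match both can be split between rows. *Gapdh*, the enzyme often used as a reference gene, had 41 such copies, and its own row held 23.6% to 30.03% of the summed value. For *Eno1*, whose main copy was *Eno1b*, the own row held 26.3% to 27.3%. For *Pgk1*, whose main copy was *Gm5537*, it held 30.1% to 32.3% in 9 tumors and 49.8% in gene trap replicate 2. Most of the summed value of these genes thus stood on other rows. With the copies added, the mean level per kilobase rose from 2704 to 10864 for *Gapdh*, from 4222 to 15806 for *Eno1* and from 1517 to 4703 for *Pgk1*, which moved *Eno1* from place 5 to place 3 among the members. The log2 fold changes with the copies added were -0.042 for *Gapdh*, -0.13 for *Eno1* and -0.18 for *Pgk1*. The levels of these 3 genes and their order are therefore uncertain. Gene trap replicate 2 held the highest own share for 9 of the 10 members with copies, all but *Eno1*. Besides *Pgk1*, examples were *Bnip3* (97.0% against at most 91.6%), *Ldhb* (87.4% against at most 79.0%) and *Gapdh* (30.03% against at most 26.3%). The split of reads between rows thus differed in this tumor, and its part in the values of these 9 members there was not tested.

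Several steps are shared by isozymes, and the shares of the listed ones were compared per transcript length, as a description without a test. Hexokinase was mostly *Hk1*, the constitutive form. The *Hk2* share was 9.39, 12.7, 8.30, 13.3 and 12.8% in wildtype replicates 1 to 5 and 13.8, 11.3, 13.96, 16.8 and 11.96% in gene trap replicates 1 to 5, with means of 11.3% ± 2.27 and 13.6% ± 2.15 (SD, n = 5 each). The lowest gene trap share was above 2 of the 5 wildtype shares, and the groups overlapped. Phosphofructokinase was mostly the liver form *Pfkl*, with shares of 70.1, 73.6, 67.7, 69.2 and 62.1% in wildtype and 70.3, 75.8, 70.98, 74.1 and 64.7% in gene trap tumors. The share of the muscle form *Pfkm* was 11.2, 9.58, 12.2, 10.7 and 17.2% in wildtype and 11.3, 9.35, 11.9, 10.9 and 11.1% in gene trap tumors, and that of the platelet form *Pfkp* was 18.8, 16.8, 20.1, 20.1 and 20.7% in wildtype and 18.4, 14.9, 17.1, 14.98 and 24.2% in gene trap tumors. *Pfkm* reached its highest share, 17.2%, in wildtype replicate 5. That tumor also had the most skeletal muscle RNA. The 6 of 8 muscle markers with a row summed to 12250.4 in it and to between 785 and 5615 in the other tumors, none of them listed at 0. In the same tumor *Ckm*, the muscle creatine kinase, was 2387 against at most 1023 in the others, and the muscle enolase *Eno3* was 1475 against at most 624. The part of muscle in the *Pfkm* value was not tested.

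Aldolase was mostly *Aldoa*, and the *Aldoc* share was 17.8, 14.7, 12.4, 14.3 and 10.9% in wildtype and 17.7, 18.2, 16.8, 13.2 and 18.1% in gene trap tumors. The *Aldoc* share was lowest in wildtype replicate 5 and above 10% in every tumor. Lactate dehydrogenase was mostly *Ldha*, the form that favors lactate, with shares of 86.5, 88.9, 89.4, 89.5 and 88.4% in wildtype and 87.9, 86.8, 88.2, 90.3 and 90.8% in gene trap tumors. The neuronal enolase *Eno2* made up 0.613, 0.573, 0.604, 0.625 and 0.605% in wildtype and 0.815, 0.555, 0.701, 0.516 and 0.694% in gene trap tumors of *Eno1* and *Eno2* combined. These shares use the own rows, so the *Eno1* part, and to a lesser degree the *Ldhb* part, may be understated where reads went to copies. GLUT3 was the minor one of the 2 listed glucose transporters, with a *Slc2a3* share of 4.44, 2.90, 2.53, 1.58 and 3.85% in wildtype and 3.10, 3.90, 7.06, 1.88 and 4.35% in gene trap tumors. Per transcript length, the 2 listed collagen prolyl hydroxylases were nearly balanced, with a *P4ha1* share of 51.8, 47.1, 52.5, 60.7 and 52.5% in wildtype and 52.6, 51.3, 49.7, 50.9 and 45.6% in gene trap tumors. This balance depends on the lengths used, since without division by length the mean *P4ha1* share over 10 tumors was 65.4% instead of 51.5%. Of *Egln1* and *Egln3* combined, the HIF-induced *Egln3* held the larger part, with an *Egln1* share of 14.3, 23.8, 26.4, 18.4 and 24.1% in wildtype and 26.6, 19.3, 20.8, 21.2 and 23.96% in gene trap tumors. The third HIF prolyl hydroxylase gene, *Egln2*, is not a listed member and did not enter these shares. Its normalized values, not divided by length, were 1841, 2619, 2638, 2365 and 1944 in wildtype and 1884, 3358, 2059, 2434 and 2664 in gene trap tumors. In all 8 families the range of shares in wildtype tumors overlapped that in gene trap tumors.

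**Figure D3:**
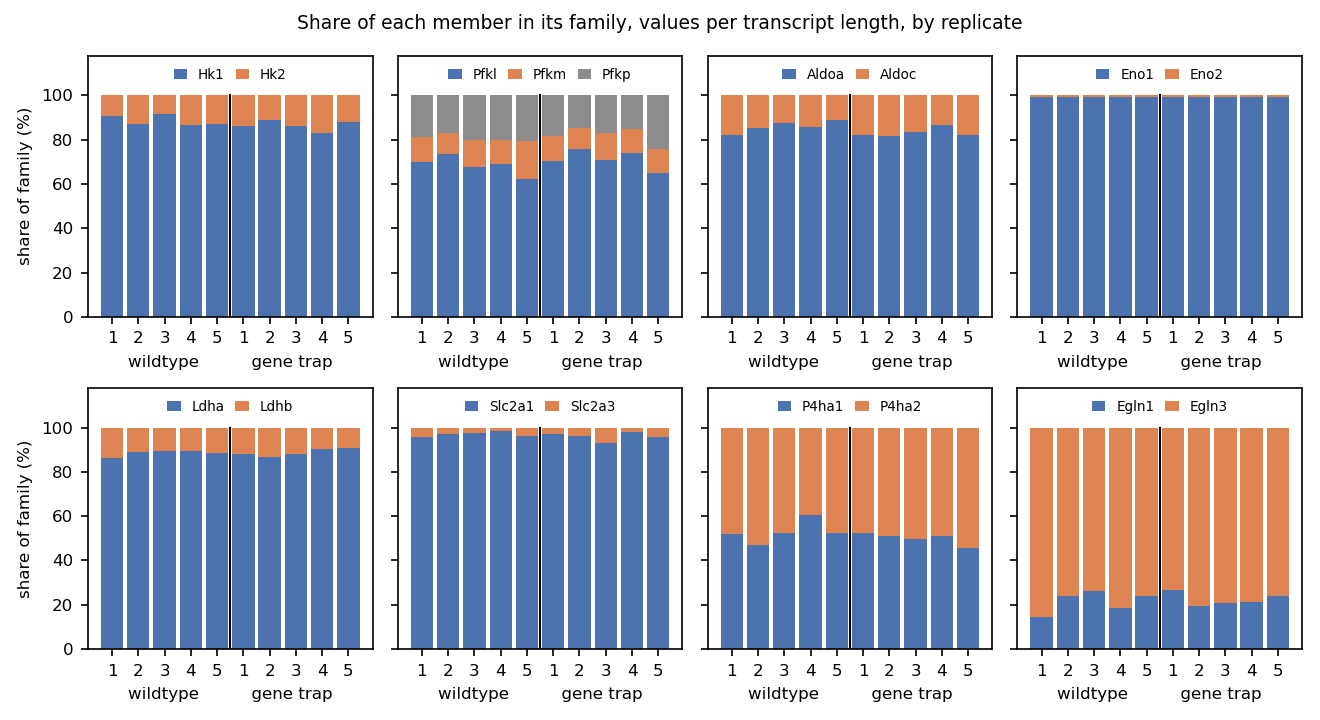
Share of each gene in its family (y axis, percent of the summed values per transcript length) in the 5 wildtype (left of the line) and 5 gene trap tumors (right). Among the genes plotted, the one with the largest share was the same in every tumor in 7 of the 8 families, whereas *P4ha1* varied around an even split, from 45.6% to 60.7%. Without division by length the mean *P4ha1* share was 65.4%.

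The difference between genotypes was smaller than the within-genotype SD for 34 of 35 members, all but *Ldhb*. The share of all tested genes for which this was so was not counted. The count therefore does not set the members apart from other genes. Replicate 4 was the highest tumor for 10 members in the wildtype and for 13 members in the gene trap group, together 23 of 35, whereas 1 of these 2 tumors was the highest for 16.9% of all tested genes. Both were among the 3 highest tumors for 23 of 35 members, against 6.83% of tested genes. Gene trap replicate 1 was the lowest tumor for 14 of 35 members, against 8.88% of tested genes. These tumors were picked out after their values were seen and their shared replicate number marks no common animal, so the counts describe them and no test was made. By kind of gene, replicate 4 of either genotype was highest for 12 of the 17 oxygen sensing, transport, secreted and other HIF target genes. It was so for 11 of the 18 enzymes. These are the same members by which the tumors were picked out, so the split is only a description. The 12 exceptions were *Slc2a3*, *Slc16a3*, *Car9*, *Higd1a*, *P4ha2*, *Hk1*, *Pfkl*, *Pfkm*, *Pfkp*, *Pfkfb3*, *Aldoa* and *Aldoc*. In gene trap replicate 1 the fibroblast markers (8 of 8 with a row, none listed at 0) summed to 122483, against 40248 to 86162 in the other 9 tumors. The lowest fibroblast sum was in wildtype replicate 4, and in gene trap replicate 4 it was 63024. The Schwann cell and neuron markers (8 of 8 with a row, 1 with a value under 1) summed to 9018 in wildtype replicate 4 and 8442 in gene trap replicate 4. These were the highest sums, against 6129 to 8117 in the other 8 tumors. Of the 7 markers that were tested, 4 were highest in replicate 4 of either genotype and 3 had both tumors among the 3 highest. The part of fibroblast, Schwann cell and neuron content in the pattern was not tested.

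**Figure D4:**
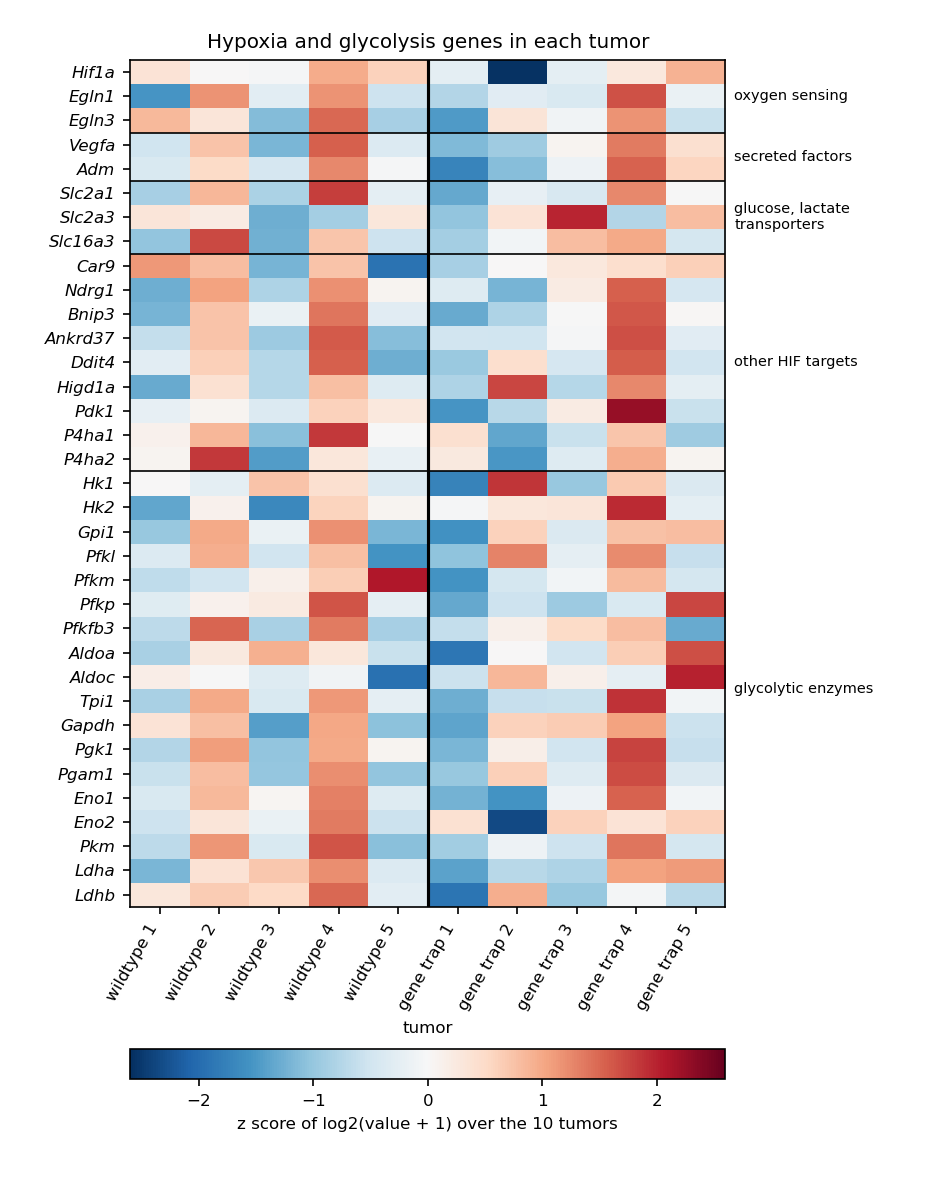
Log2 values of the 35 members (rows, grouped by role) in the 10 tumors (columns, wildtype left of the line), each row as a z score over the 10 tumors; red is above and blue below the gene's mean. The columns of wildtype replicate 4 and gene trap replicate 4 are mostly red, with median z scores of 1.19 and 1.16, and that of gene trap replicate 1 is mostly blue, with a median of -1.05.

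How closely the members followed each other across tumors was measured for 8 pairs, on log2 values centered within genotype so that a difference between genotypes could not contribute. Pearson's r and Spearman's rho over the 10 tumors were tested by permutation (two-sided, 100000 resamples), with Benjamini-Hochberg adjustment over the 8 pairs. *Vegfa* and *Adm* were the closest pair, with r = 0.94 (permutation p = 7.00e-05, adjusted 0.00056) and rho = 0.94 (p = 0.00024, adjusted 0.00192). Without wildtype replicate 4 and gene trap replicate 4, the tumors farthest from the median of *Vegfa*, r was 0.89 (permutation p = 0.00292). Within the wildtype tumors alone r was 0.97 and within the gene trap tumors 0.99, over 5 tumors each and without a test.

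*Bnip3* and *Pdk1* also passed by r, at 0.82 (permutation p = 0.00157, adjusted 0.00628), but not by rho, at 0.68 (p = 0.0342, adjusted 0.0683). Without replicate 4 of both genotypes, the tumors farthest from the median of *Bnip3*, r was 0.61 (permutation p = 0.105). Leaving these tumors out also narrows the range of the first gene and leaves 8 tumors. With single tumors left out, the call was lost only without gene trap replicate 4, where r was 0.68 (adjusted permutation p = 0.111). *Ankrd37* and *Egln3* passed by r and not by rho, with r = 0.77 (permutation p = 0.0101, adjusted 0.027), rho = 0.70 (p = 0.0303, adjusted 0.0683) and r = 0.46 (permutation p = 0.263) without the same 2 tumors. This call was lost without any one of wildtype replicates 4 and 5 and gene trap replicates 3 and 4, with r of 0.68 to 0.77. *Slc2a1* and *Ldha* also passed by r and not by rho, with r = 0.73 (permutation p = 0.0183, adjusted 0.0366), rho = 0.73 (p = 0.0204, adjusted 0.0683) and r = 0.53 (permutation p = 0.174) without the 2 tumors. Here any one of 7 of the 10 tumors, when left out, ended the call, with r of 0.65 to 0.75. The calls of these 3 pairs thus depended on single tumors. When values were exchanged only within a genotype, over all such arrangements, the adjusted p of r was 0.0578 for *Ankrd37* and *Egln3* and 0.0552 for *Slc2a1* and *Ldha*, which no longer passed.

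The other 4 pairs did not pass. *Hif1a* and *Vegfa* had r = 0.53 (permutation p = 0.107, adjusted 0.131) and rho = 0.61 (p = 0.0658, adjusted 0.105). For *Pgk1* and *Ldha* r was 0.54 (permutation p = 0.106, adjusted 0.131) and rho 0.45 (p = 0.191, adjusted 0.218). For *Aldoa* and *Tpi1* r was 0.54 (permutation p = 0.115, adjusted 0.131) and rho 0.59 (p = 0.081, adjusted 0.108). *Car9* and *Ndrg1*, a pair of common hypoxia markers, had the lowest r, 0.21 (permutation p = 0.545, adjusted 0.545), with rho = 0.12 (p = 0.758, adjusted 0.758). Without the 2 tumors farthest from the median of the first gene, r was 0.65, 0.36, 0.57 and 0.05 for these pairs in turn, with permutation p values of 0.0847, 0.376, 0.14 and 0.907. With 10 tumors, a p above the threshold does not show that a pair was unrelated.

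**Figure D5:**
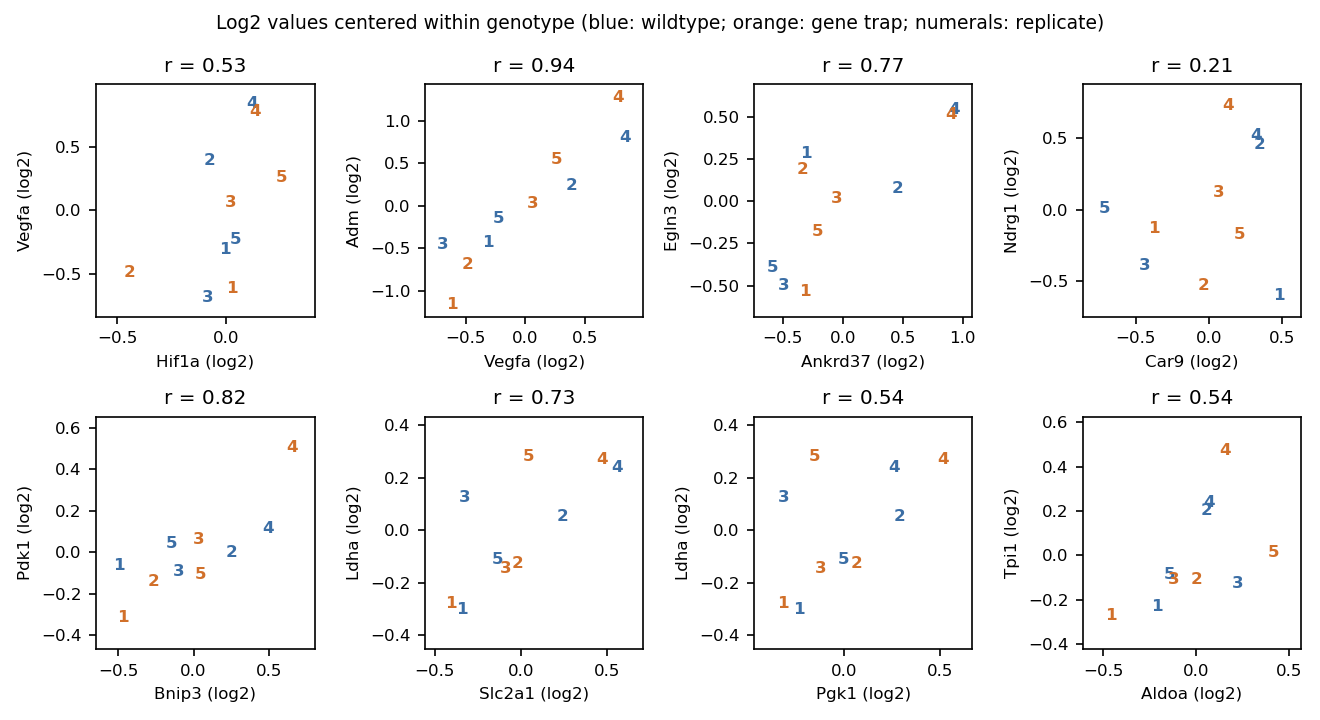
Log2(value + 1) of both genes of each of the 8 pairs, centered within genotype (x axis, first gene; y axis, second gene); each numeral is a tumor's replicate number, blue wildtype and orange gene trap, and r is Pearson's. *Vegfa* and *Adm* lie along a line through all 10 tumors, whereas in the *Bnip3* and *Pdk1*, *Ankrd37* and *Egln3*, and *Slc2a1* and *Ldha* panels replicate 4 of both genotypes lies at the upper end of the first gene.

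Genes of the same pathways outside the list were read in the same way. Of 11 tested components of the HIF pathway, such as *Epas1* and *Vhl*, 7 were higher and 4 lower in gene trap tumors, and the median of the log2 fold changes was 0.031. Of 34 further HIF targets 11 were higher and 23 lower, with a median of -0.072, and of 29 further genes of glycolysis and pyruvate 15 were higher and 14 lower, with a median of 0.0038. In each of these lists 0 genes had an unadjusted limma p under 0.05, where the share over all tested genes was 2.28%. The 4 genes with the smallest p were *Fbp2*, the muscle fructose bisphosphatase, *Insig2*, a regulator of sterol synthesis, *Pdp2*, which reactivates pyruvate dehydrogenase, and *Gbe1*, the glycogen branching enzyme. *Fbp2* was 53.8, 50.04, 76.3, 40.5 and 56.6 in wildtype and 41.7, 54.97, 30.6, 40.9 and 37.4 in gene trap tumors, and its log2 fold change was -0.42 (standard error 0.21), at an unadjusted limma p of 0.0744. *Insig2* was 1028, 1104, 1086, 1138 and 1071 in wildtype and 919.8, 972, 928, 1052 and 1084 in gene trap tumors, with a difference of -0.13 (standard error 0.07) on the log2 scale and a limma p of 0.0896. The groups of both genes overlapped. *Pdp2* was 397, 467, 358, 356 and 406 in wildtype and 519, 562, 401, 494 and 375 in gene trap tumors, with a difference of 0.23 (standard error 0.13) on the log2 scale and a limma p of 0.0944. *Gbe1* was 1004, 939.9, 901, 947 and 870.1 in wildtype and 836, 691, 892, 888 and 894 in gene trap tumors, with a difference of -0.15 (standard error 0.09) on the log2 scale and a limma p of 0.103. The groups of these genes overlapped as well. The further HIF targets shared the tumor pattern in part. The highest value lay in replicate 4 of either genotype for 17 of 34, and both of these tumors were among the 3 highest for 9 of 34, against 16.9% and 6.83% of all tested genes. For the HIF pathway components the counts were 1 and 2 of 11. For the further genes of glycolysis and pyruvate they were 5 and 2 of 29 (17.2% and 6.90%), near the shares of all tested genes. These further glycolysis genes thus did not share the tumor pattern.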

How the data were processed

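Total RNA from mammary tumors was isolated with Trizol and made into stranded libraries, per the labels. The values deposited by the authors are a signal: gene-level estimated counts after median ratio scaling, not whole reads. The submitters' processing notes name Partek, STAR 2.7.8a, DESeq2 and build mm39; the annotation and the counter are not given in the sources used here. There were 0 zeros in the columns used, so not being listed at 0 does not show that a gene was detected. Column totals lay between 31995078 and 42153593. Depth is therefore unknown and no interval that needs it is given. Of 16 columns of values, 10 matched a tumor's label, and 6 named by an animal's number matched none and were not used. The labels do not say that each tumor came from a separate mouse, so p-values measure the spread between these samples.

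Gene IDs were paired with symbols for 22899 (97.0%) of 23609 IDs. The given annotation is of build GRCm38, so the table's genes carry no coordinates here, and transcript lengths are those of GENCODE M21. Log2 was taken of each value plus a pseudocount of 1, so fold changes of low genes are understated. The 21034 genes whose mean over the 10 tumors reached 10 entered limma 3.58.1 (R 4.3.3), fitted by genotype alone with a variance trend, and p was adjusted by Benjamini-Hochberg. Relations used permutation (Python 3.11.15, scipy 1.17.1), near-identical copies BLAST 2.17.0 and figures matplotlib 3.10.9. The calculations were tested on simulated data. Alternatives were no variance trend, other pseudocounts, filters and normalization, a replicate block, weights per tumor, each tumor left out, copies added and shares not divided by length.

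The members and lists were chosen with earlier results of these data known. Values in every tumor are given for members with an unadjusted p under 0.05 (0 genes), the 6 with the largest log2 fold change, the 4 with the largest spread, the isozyme families as shares and the 8 pairs, with the 4 genes of smallest p from the other pathway lists and *Resf1*.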

Additional observations from a re-analysis of the deposited data

Results flagged for a closer look

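For each member and genotype, Dixon's test asked whether the highest or lowest of the 5 tumors was far from the rest. Of 70 such groups, 7 had a gap to the nearest tumor of more than 0.71 of the whole range, where chance alone gives about 1 in 20, or 3.5. The test used normalized values without log2. The 70 groups share the same 10 tumors, in which many members were high or low together. They are not independent, so 7 against 3.5 cannot be read as an excess. In gene trap replicate 4, *Egln1* was 1291 where its group otherwise lay between 838 and 932, *Ankrd37* was 130.3 against 54.7 to 66.5, and *Hk2* was 2055 against 1264 to 1435. The phosphofructokinase gene *Pfkp* had a high value in each genotype, 4661 in wildtype replicate 4 (otherwise 3547 to 3834) and 4733 in gene trap replicate 5 (otherwise 3078 to 3505). *Aldoc* was 6972 in wildtype replicate 5 against 10355 to 11736. *Eno2* was 50.3 in gene trap replicate 2 against 77.7 to 80.6. Without gene trap replicate 5 the log2 fold change of *Pfkp* was -0.22, with an unadjusted limma p of 0.0335 and an adjusted p of 0.990. With each of these tumors left out in turn, 0 members passed after adjustment over all tested genes.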

How the results depend on the processing

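Over 19 alternative fits, 0 genes had an adjusted p under 0.05, as in the reported limma fit (479 genes at an unadjusted p under 0.05, and 307 to 694 under the alternatives). No member came near that threshold, and the smallest adjusted p of a member was 0.979. Instead of 0, 1 member had an unadjusted p under 0.05 with weights per tumor (*Ldhb*), with the replicate number as a block (*Hk2*) and with near-identical copies added (*Ldhb*), and 0 to 1 when each tumor was left out: *Hk2* without wildtype replicate 4, *Ldhb* without gene trap replicate 2 and *Pfkp* without gene trap replicate 5. The median log2 fold change of the members ran from -0.12 to 0.038 with each tumor left out. Same-numbered tumors are of different genotype and share only a number, with correlations of their deviations between -0.16 and 0.15, and under the replicate block *Hk2* had an unadjusted limma p of 0.0386 and an adjusted p of 0.9997. *Slc2a3* could not be tested at a minimum mean of 50. The sum of near-identical copies and the exchange within genotype were chosen after the data were seen.

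The direction of 10 members held throughout. The other 25, none of them called, changed sign at least once, by at most 0.16 past 0, and the cause was not tested. Quantile normalization gave -0.0017 for *Egln1*. Weights per tumor gave -0.017 for *Egln1*, 0.013 for *Vegfa*, 0.040 for *Ndrg1*, -0.062 for *Ddit4*, 0.040 for *P4ha2*, -0.038 for *Gpi1*, -0.015 for *Pfkl* and 0.054 for *Eno2*. Near-identical copies added gave -0.0081 for *Gpi1* and -0.042 for *Gapdh*. With each tumor left out the log2 fold changes ran from -0.10 to 0.078 for *Egln1*, -0.23 to 0.030 for *Egln3*, -0.25 to 0.16 for *Vegfa*, -0.58 to 0.025 for *Adm*, -0.22 to 0.041 for *Slc2a1*, -0.093 to 0.42 for *Slc16a3*, -0.11 to 0.19 for *Car9*, -0.22 to 0.090 for *Ndrg1*, -0.23 to 0.053 for *Bnip3*, -0.15 to 0.31 for *Ankrd37*, -0.14 to 0.17 for *Ddit4*, -0.16 to 0.047 for *Pdk1*, -0.18 to 0.061 for *P4ha2*, -0.087 to 0.023 for *Hk1*, -0.046 to 0.11 for *Gpi1*, -0.023 to 0.14 for *Pfkl*, -0.13 to 0.045 for *Pfkfb3*, -0.11 to 0.11 for *Aldoa*, -0.18 to 0.0086 for *Tpi1*, -0.045 to 0.11 for *Gapdh*, -0.17 to 0.038 for *Pgk1*, -0.038 to 0.15 for *Pgam1*, -0.075 to 0.092 for *Eno2*, -0.10 to 0.021 for *Pkm* and -0.14 to 0.0032 for *Ldha*.

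For the pairs, r with each tumor left out ran from 0.92 to 0.96 for *Vegfa* and *Adm*, which always passed. It ran from 0.68 to 0.88 for *Ankrd37* and *Egln3*, from 0.68 to 0.88 for *Bnip3* and *Pdk1* and from 0.65 to 0.89 for *Slc2a1* and *Ldha*, and the calls were lost without wildtype 4 or 5 or gene trap 3 or 4 in the first pair, without gene trap 4 in the second, and without any of wildtype 1, 4 and 5 and gene trap 1 to 4 in the third. It ran from 0.35 to 0.73 for *Pgk1* and *Ldha*, which passed only without gene trap replicate 5. After quantile normalization r of *Slc2a1* and *Ldha* was 0.62 and no longer passed. With exchange within genotype, r stayed 0.77 for *Ankrd37* and *Egln3* and 0.73 for *Slc2a1* and *Ldha* and did not pass. Without division by length, the mean share over 10 tumors was 84.6% instead of 87.6% for *Hk1*, 8.96% instead of 11.5% for *Pfkm*, 75.4% instead of 84.6% for *Aldoa*, 99.1% instead of 99.4% for *Eno1*, 91.6% instead of 88.7% for *Ldha*, 65.4% instead of 51.5% for *P4ha1* and 27.4% instead of 21.9% for *Egln1*.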
